A study of Homo sapiens with 27 samples.

Results

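The plasminogen activator system was followed here through 4 genes across all 9 groups of a ligand series: PLAU, PLAT, PLAUR and SERPINE2. The genes were taken by symbol from the deposited table, with rows that share a symbol summed. That left 4 of 36536 features, each with a single row of its own, and all 4 were among the 15575 features with enough counts to be tested. Polyadenylated RNA was counted in MCF10A, an established non-tumorigenic line of human mammary epithelium, in 27 libraries of 3 per group. The series addresses how cells respond to epidermal growth factor (EGF), oncostatin M (OSM, an interleukin-6 family cytokine) and transforming growth factor beta (TGFB), alone and in combination. The labels do not say whether the 3 libraries of a group came from separate cultures. Each p-value therefore sets a difference between groups against the spread between libraries, which may be technical.

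Cells of every group had grown in medium with horse serum, hydrocortisone, cholera toxin, insulin and 20 ng/ml EGF, and had then spent 18 h in medium without growth factors on collagen-1. The T0 group is the labelled time-zero control. The PBS group received phosphate-buffered saline and, like the treated groups, was profiled at 24 h. PBS and T0 thus differ in time as well as in the saline. The other 7 groups received EGF, OSM, TGFB, EGF+OSM, EGF+TGFB, OSM+TGFB or EGF+OSM+TGFB, each ligand at 10 ng/ml, and were profiled at 24 h. One cell line stands behind all groups.

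Plasminogen activators are serine proteases that cut the zymogen plasminogen into plasmin, a broad protease that degrades fibrin and other matrix proteins and activates further proteases. Urokinase, the product of PLAU, acts mainly when bound to its surface receptor, the product of PLAUR, which also binds vitronectin and works with integrins. Tissue-type activator, the product of PLAT, acts mainly on fibrin. Serpins, among them protease nexin-1 (SERPINE2), inactivate both activators, and endocytic receptors such as LRP1 remove the complexes.

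In GENCODE v44 on GRCh38, PLAU (ENSG00000122861) spans chromosome 10 from 73909177 to 73917496 on the plus strand. PLAUR (ENSG00000011422) lies on the minus strand of chromosome 19 from 43646095 to 43670547, and SERPINE2 (ENSG00000135919) on the minus strand of chromosome 2 from 223975045 to 224039318. These spans hold exons and introns. Exons of PLAU overlap C10orf55, a long noncoding RNA on the opposite strand. The kit was stranded, but the strand setting of the counting is not given in the sources used here, so reads from that gene cannot be told apart from PLAU reads.

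Stretches upstream of the start sites of PLAU and PLAUR are shown, from RefSeq on GRCh38.p14. They were not chosen by the levels of these genes. Windows were searched for PLAU, PLAUR and SERPINE2, and none for PLAT. A window of 250 bases before the start was searched on both strands for TGANTCA (bound by AP-1 factors), TTCNNNGAA (bound by STAT factors) and CAGAC (bound by SMAD factors). Capitals mark the match, and each stretch is written 5′ to 3′ on the strand of its gene.
PLAU, chr10:73910882-73911103, plus strand: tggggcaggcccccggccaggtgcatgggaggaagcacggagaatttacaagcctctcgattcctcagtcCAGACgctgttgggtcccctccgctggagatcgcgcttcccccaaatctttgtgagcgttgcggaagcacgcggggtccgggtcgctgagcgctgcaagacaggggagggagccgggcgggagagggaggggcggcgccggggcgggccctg
PLAUR, chr19:43670337-43670366, minus strand: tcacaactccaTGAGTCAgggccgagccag
The PLAU window held CAGAC once, 180 bases before the start. The PLAUR window held TGAGTCA 186 bases before the start and CAGAC on the opposite strand 51 bases before it, and the matches did not overlap. That PLAUR window lies within exons of a PLAUR transcript that starts further upstream, and only the stretch around the match is printed. The PLAU window lies inside the GENCODE span of PLAU, with 28 of its 250 bases in PLAU exons. The SERPINE2 window held none of the 3 motifs, but its start site lies 646 bases from the canonical GENCODE start, and 164 of its bases are in SERPINE2 exons. Of 35116 promoter windows of this length, 6.57% held TGANTCA, 6.57% held TTCNNNGAA and 38.0% held CAGAC. A match describes letters only, and no binding was measured.

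Library totals ran from 30.1 to 52.9 M (mega) estimated counts, and their median was 39.5 M. All levels below are counts per 1 M counts of a library (CPM), with library sizes adjusted by TMM, the trimmed mean of M-values. Levels are compared between groups for a gene and never between genes, since the table gives no transcript lengths. The spread between replicates corresponded to a coefficient of variation of 7.83% over all features tested. The lowest count behind any level of PLAU, PLAUR, PLAT or SERPINE2 was 92, for SERPINE2 in a PBS library. Some levels of other genes below rest on fewer counts. In PBS, SOCS3 had at most 85 counts in a library, and TFPI2 and ITGB3 had means of only 0.192 and 0.351 CPM. The reporters of the ligands rose where the labels name the ligand: DUSP6, a feedback phosphatase of ERK signalling, was at 5.40 ± 0.379 CPM in PBS and 95.9 ± 6.54 with EGF. SOCS3, a STAT feedback inhibitor, was at 1.49 ± 0.319 in PBS and 165 ± 19.9 with OSM, and SMAD7, a SMAD feedback inhibitor, at 14.4 ± 1.50 in PBS and 29.0 ± 0.733 with TGFB (SD, n = 3). Other ligands moved them too. DUSP6 was at 66.6 ± 15.7 with OSM and 10.4 ± 0.199 with TGFB, SOCS3 at 3.03 ± 0.175 with TGFB, and SMAD7 at 21.5 ± 1.27 with OSM. With EGF, SOCS3 and SMAD7 were near PBS, at 1.28 ± 0.250 and 13.7 ± 0.494. The 7 epithelial markers were above 1 CPM in every group.

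Against PBS, the 4 genes were mostly raised, and each had its highest mean in a combination with TGFB. Calls were made where adjusted p was under 0.05 in edgeR's quasi-likelihood test, with the Benjamini-Hochberg adjustment over all 15575 features. The 7 comparisons with PBS share the 3 PBS libraries, so a deviation in those moves all of them together. With EGF all 4 genes were called higher, where 34.9% of all features were. With OSM 3 of 4 were called higher, against 33.5% of all features, and with TGFB 3 of 4, against 19.9%. All 4 were called higher with EGF+OSM, EGF+TGFB, OSM+TGFB and the 3 ligands together, where the share of all features called higher was 37.6%, 36.2%, 34.2% and 37.7%. The responses of this transcriptome were broad, so that being called higher does not by itself set these genes apart, and the results turn on the sizes of their changes. The median log2 fold change of all features lay between -0.07 and 0.00 in these comparisons.

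**Figure D1:**
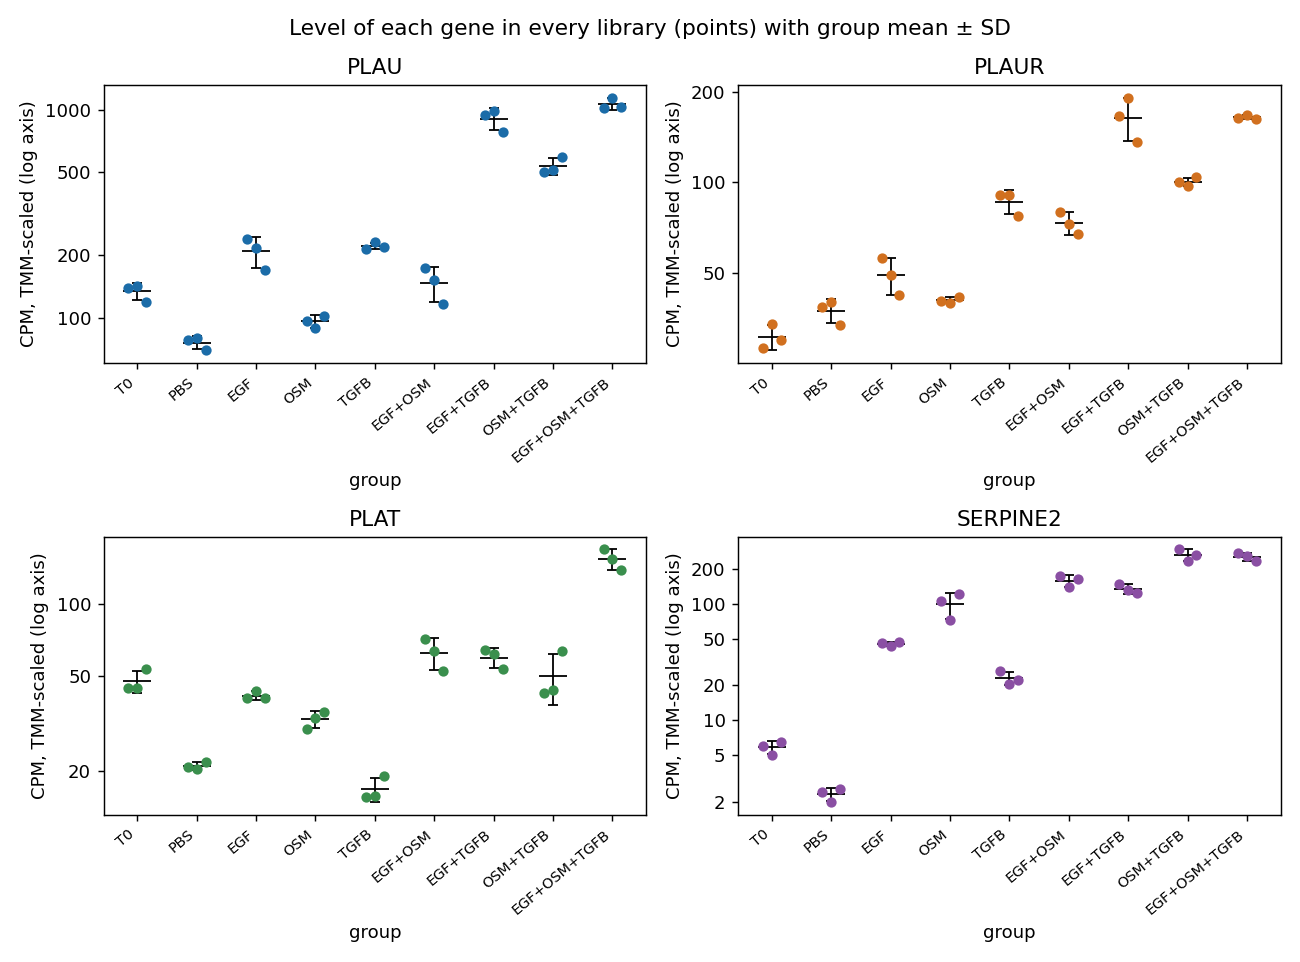
Level of PLAU, PLAUR, PLAT and SERPINE2 in each of the 27 libraries (points, TMM-scaled CPM on a log axis, with a scale of its own for each gene) by group on the x axis, with the group mean ± SD as bars. PLAU and PLAUR peak in EGF+TGFB and EGF+OSM+TGFB, PLAT peaks in EGF+OSM+TGFB alone with 139 to 169 CPM, and SERPINE2 peaks in OSM+TGFB and EGF+OSM+TGFB.

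PLAU encodes urokinase, the activator that works at the cell surface. Its level was 139, 143 and 119.5 CPM in T0 and 78.1, 80.0 and 69.8 CPM in PBS. Every PBS library lay below every T0 library, and PBS was the group with the lowest mean. PLAU fell by 0.82 on the log2 scale from T0 to PBS (SE 0.13, adjusted p = 4.03e-05).

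With EGF, PLAU was at 240.0, 216 and 169.7 CPM, and with TGFB at 214, 230.3 and 219 CPM. All 6 libraries lay above all PBS libraries, and the 2 groups overlapped each other. The log2 fold change against PBS was 1.46 ± 0.13 (SE) with EGF and 1.54 ± 0.13 with TGFB, with adjusted p-values of 1.49e-09 and 4.26e-09. The 2 ligands did not differ beyond the spread (log2 difference 0.08 ± 0.13, adjusted p = 0.567).

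OSM alone gave 96.3, 89.0 and 102 CPM of PLAU. These libraries lay just above the 3 PBS libraries, with a log2 fold change of 0.34 ± 0.13 (adjusted p = 0.0291). The call was lost without PBS replicate 3 (log2 0.28), without OSM replicate 1 (adjusted p = 0.0594) or without OSM replicate 3 (adjusted p = 0.107). It was also lost with upper-quartile scaling (0.0696) or with no filter on low counts (0.0959).

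The pairs with TGFB moved PLAU much further than either ligand alone. PLAU reached 949, 986 and 782 CPM with EGF+TGFB and 501, 511 and 592 CPM with OSM+TGFB. The lowest OSM+TGFB library was above the highest library of EGF, OSM or TGFB alone, and no EGF+TGFB library overlapped OSM+TGFB. Against PBS the changes were 11.9-fold with EGF+TGFB (log2 3.58 ± 0.14, adjusted p = 9.43e-16) and 7.04-fold with OSM+TGFB (log2 2.82 ± 0.14, adjusted p = 4.31e-14). Adding TGFB to EGF raised PLAU by 2.12 ± 0.13 on the log2 scale and adding it to OSM by 2.48 ± 0.13, against 1.54 ± 0.13 for TGFB in PBS.

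EGF+OSM gave 173, 151.1 and 117 CPM of PLAU. These libraries lay above PBS (log2 0.95 ± 0.13, adjusted p = 8.24e-07), but the mean was below that of EGF alone, and the highest of them overlapped the lowest EGF library. Adding OSM to EGF lowered PLAU by 1.42-fold (log2 -0.51 ± 0.13, adjusted p = 0.00369). This call was lost when the spread was estimated from EGF and EGF+OSM libraries alone (adjusted p = 0.0947).

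All 3 ligands together gave 1017, 1145 and 1028 CPM, the group with the highest mean, at 14.0-fold over PBS (log2 3.81 ± 0.14, adjusted p = 2.68e-16). Those libraries lay above all EGF+TGFB libraries, but the difference did not pass the test (log2 0.23 ± 0.13, adjusted p = 0.196). In order of mean level PLAU ran PBS, OSM, T0, EGF+OSM, EGF, TGFB, OSM+TGFB, EGF+TGFB and EGF+OSM+TGFB. Neighbours that did not differ beyond their spread were T0 and EGF+OSM (adjusted p = 0.355), EGF and TGFB, and EGF+TGFB and the 3 ligands together.

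PLAT (ENSG00000104368) encodes tissue-type plasminogen activator and lies on the minus strand of chromosome 8, from 42174718 to 42207709 in the same annotation. It was at 44.3, 44.6 and 53.4 CPM in T0 and at 20.7, 20.3 and 21.8 CPM in PBS. All PBS libraries lay below all T0 libraries, with a fall of 2.26-fold (log2 -1.18 ± 0.14, adjusted p = 8.05e-07). PLAT therefore shared with PLAU a drop between the time-zero control and PBS.

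EGF gave 40.4, 43.3 and 40.3 CPM of PLAT and OSM gave 30.1, 33.3 and 35.3 CPM. Both groups were clear of PBS and of each other. The log2 fold change over PBS was 0.98 ± 0.14 with EGF (adjusted p = 1.41e-06) and 0.65 ± 0.14 with OSM (adjusted p = 0.000327).

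TGFB alone gave 15.6, 15.8 and 19.0 CPM of PLAT, so that every TGFB library lay below every PBS library. The log2 fold change of -0.32 ± 0.14 did not pass the test (adjusted p = 0.0898). It passed with DESeq2 (adjusted p = 0.0465) and when the spread was estimated from the PBS and TGFB libraries alone (adjusted p = 0.00776).

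In the pairs PLAT was at 71.3, 63.5 and 52.1 CPM with EGF+OSM, at 63.8, 61.4 and 53.2 CPM with EGF+TGFB and at 42.4, 43.5 and 63.7 CPM with OSM+TGFB. The 3 pairs overlapped one another, and replicate 3 of OSM+TGFB stood above its group. OSM+TGFB was nonetheless called lower than EGF+OSM (log2 -0.32 ± 0.13, adjusted p = 0.0362). All 3 pairs were above PBS, with log2 fold changes of 1.57 ± 0.14, 1.51 ± 0.14 and 1.25 ± 0.14 (adjusted p = 7.11e-10, 1.78e-09 and 5.37e-08). TGFB, which had not raised PLAT on its own, raised it by 0.53 ± 0.13 when added to EGF (adjusted p = 0.00185) and by 0.60 ± 0.14 when added to OSM (adjusted p = 0.000783), both on the log2 scale.

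The 3 ligands together gave 169, 153.5 and 139 CPM of PLAT. The lowest of these libraries was above the highest library of every other group. PLAT was 7.34-fold over PBS there (log2 2.88 ± 0.14, adjusted p = 3.02e-14). It was 2.47-fold over EGF+OSM, 2.58-fold over EGF+TGFB and 3.09-fold over OSM+TGFB, each passing the test, with adjusted p-values of 1.53e-08, 4.15e-08 and 2.1e-09. PLAU and PLAUR, in contrast, were not called different between EGF+TGFB and the 3 ligands together.

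By mean level PLAT ran TGFB, PBS, OSM, EGF, T0, OSM+TGFB, EGF+TGFB, EGF+OSM and EGF+OSM+TGFB. TGFB and PBS did not differ beyond their spread. The same held for EGF and T0 (adjusted p = 0.195), T0 and OSM+TGFB (0.644), OSM+TGFB and EGF+TGFB (0.105), and EGF+TGFB and EGF+OSM (0.694). The EGF libraries nonetheless lay below all T0 libraries.

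PLAUR encodes the glycolipid-anchored urokinase receptor. T0 gave 28.2, 34.0 and 30.1 CPM and PBS gave 38.8, 40.3 and 33.7 CPM. PLAUR was the only one of the 4 genes with a higher mean in PBS than in T0, and the groups overlapped. The log2 fold change was 0.29 ± 0.11 (adjusted p = 0.0423). Adjusted p was 0.160 without T0 replicate 1, 0.112 without T0 replicate 3, 0.112 without PBS replicate 1, 0.158 without PBS replicate 2 and 0.130 with no filter on low counts, so the call was lost in each case. From T0 to PBS 3 of the 4 genes were called lower and 1 higher, where 18.9% of all features were called lower and 16.2% higher.

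EGF raised PLAUR to 56.0, 49.3 and 42.4 CPM. The lowest EGF library was just above the highest PBS library, and the log2 fold change was 0.39 ± 0.11 (adjusted p = 0.00234). OSM gave 40.6, 39.9 and 41.9 CPM, overlapping PBS (log2 0.12 ± 0.11, adjusted p = 0.357). TGFB gave 90.9, 91.0 and 77.3 CPM, clear of EGF, OSM and PBS, at 2.30-fold over PBS (log2 1.20 ± 0.11, adjusted p = 4.25e-09). Of the single ligands, then, TGFB raised the receptor above the level with EGF (log2 difference 0.81 ± 0.11, adjusted p = 3.21e-07, where 38.4% of all features were called higher), while it left urokinase mRNA at a level that overlapped EGF.

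EGF+OSM gave 80.0, 72.8 and 67.6 CPM of PLAUR, EGF+TGFB 165.7, 190.1 and 136 CPM, and OSM+TGFB 100.1, 97.6 and 104 CPM. All 9 libraries were above PBS, EGF and OSM. The log2 fold changes over PBS were 0.97 ± 0.11, 2.13 ± 0.11 and 1.42 ± 0.11, with adjusted p-values of 1.87e-08, 2.26e-14 and 4.17e-11. OSM, which on its own left PLAUR within the spread of PBS, raised it by 0.58 ± 0.11 on the log2 scale when added to EGF (adjusted p = 0.000147). Added to TGFB, OSM gave a difference of 0.22 ± 0.10 that did not pass the test (adjusted p = 0.0779), although the 3 OSM+TGFB libraries were above the 3 TGFB libraries. It passed when the spread came from those groups alone (adjusted p = 0.0205).

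With the 3 ligands PLAUR was at 164, 167 and 162 CPM, inside the range of EGF+TGFB. It was 4.37-fold over PBS (log2 2.13 ± 0.11, adjusted p = 1.81e-14) and did not differ from EGF+TGFB (log2 0.00 ± 0.10, adjusted p = 0.995). The order of mean levels was T0, PBS, OSM, EGF, EGF+OSM, TGFB, OSM+TGFB, EGF+TGFB and EGF+OSM+TGFB. PBS and OSM, TGFB and OSM+TGFB, and EGF+TGFB and the 3 ligands together were neighbours that did not differ beyond their spread.

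SERPINE2 encodes protease nexin-1, a secreted serpin that inhibits thrombin, urokinase, tissue-type activator and plasmin. It had the largest fold changes of the 4 genes in every comparison with PBS. T0 gave 5.96, 5.06 and 6.55 CPM and PBS 2.43, 1.98 and 2.54 CPM. PBS lay wholly below T0, with a fall of 2.53-fold (log2 -1.34 ± 0.23, adjusted p = 8.53e-05).

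Each single ligand raised SERPINE2. TGFB gave 26.3, 20.6 and 22.1 CPM, EGF 45.8, 43.3 and 47.0 CPM, and OSM 105, 72.0 and 121 CPM. The 3 groups did not overlap one another or PBS, and replicate 2 of OSM was the lowest of its group. Over PBS the changes were 9.96-fold with TGFB, 19.6-fold with EGF and 42.9-fold with OSM, or 3.32 ± 0.20, 4.30 ± 0.20 and 5.42 ± 0.20 on the log2 scale (adjusted p = 2.45e-11, 3.27e-14 and 9.26e-16). OSM thus raised this inhibitor most, though it changed PLAU by 1.26-fold and PLAUR was not called. OSM was above EGF by 1.13 ± 0.14 and TGFB below EGF by 0.98 ± 0.15 on the log2 scale, with adjusted p-values of 9.21e-07 and 5.72e-06. Of all features, 28% were called higher with OSM than with EGF and 32.4% lower with TGFB than with EGF.

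EGF+TGFB gave 148, 131 and 123 CPM of SERPINE2, EGF+OSM 173.5, 138.5 and 164 CPM, and OSM+TGFB 294, 232 and 262 CPM. The first 2 pairs overlapped each other and did not differ beyond the spread (log2 -0.24 ± 0.14 for EGF+TGFB against EGF+OSM, adjusted p = 0.138). OSM+TGFB lay above both. Over PBS the log2 fold changes were 5.86 ± 0.20, 6.10 ± 0.20 and 6.83 ± 0.20 (adjusted p = 1.08e-16, 6.54e-17 and 1.12e-17).

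The 3 ligands together gave 272, 258 and 233 CPM of SERPINE2, within the range of OSM+TGFB, at 6.78 ± 0.20 on the log2 scale over PBS (adjusted p = 8.28e-18). The difference from OSM+TGFB was -0.05 ± 0.14 (adjusted p = 0.809). SERPINE2 thus ran PBS, T0, TGFB, EGF, OSM, EGF+TGFB, EGF+OSM, EGF+OSM+TGFB and OSM+TGFB in mean level. Only the pairs of neighbours EGF+TGFB with EGF+OSM and EGF+OSM+TGFB with OSM+TGFB did not differ beyond their spread.

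**Figure D2:**
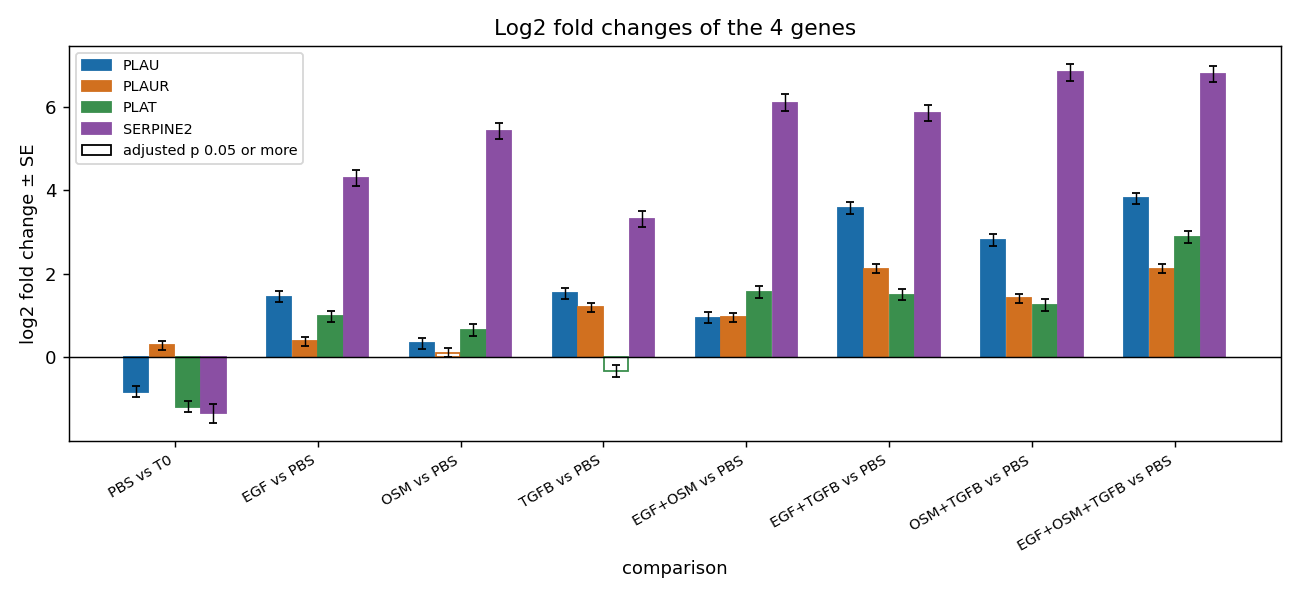
Log2 fold change ± SE (y axis) of each gene from T0 to PBS and from PBS to each of the 7 treatments (x axis), from edgeR's quasi-likelihood fit over 27 libraries; open bars have an adjusted p of 0.05 or more. SERPINE2 has the tallest bar in each treatment, from 3.32 with TGFB to 6.83 with OSM+TGFB, and the only open bars are PLAUR with OSM and PLAT with TGFB.

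Each ligand was also followed as an addition to another. TGFB added to EGF raised all 4 genes, where 27% of all features were called higher, and TGFB added to OSM did so too, where 26.1% were. EGF raised all 4 genes when added to OSM (29.9% of all features called higher) and when added to TGFB (33.9%). PLAT went from its lowest group mean to 59.5 CPM in the latter case, a change of 1.83 ± 0.14 on the log2 scale (adjusted p = 1.49e-10). OSM added to EGF raised PLAUR, PLAT and SERPINE2 and lowered PLAU, where 17.8% of all features were called higher and 17.1% lower. OSM added to TGFB raised PLAU, PLAT and SERPINE2 (30.1% of all features called higher), with 1.27 ± 0.13, 1.57 ± 0.14 and 3.51 ± 0.16 on the log2 scale.

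Adding EGF to the pair OSM+TGFB raised both activators and the receptor, PLAU by 0.99 ± 0.13, PLAT by 1.63 ± 0.13 and PLAUR by 0.71 ± 0.10 on the log2 scale, each called higher, where 26.3% of all features were. Adding OSM to the pair EGF+TGFB raised PLAT by 1.37 ± 0.13 and SERPINE2 by 0.92 ± 0.14, both called higher, where 13.6% of all features were. For PLAU, whose libraries did not overlap, the difference was 0.23 ± 0.13 (adjusted p = 0.196), and for PLAUR it was 0.00 ± 0.10 (adjusted p = 0.995). Adding TGFB to EGF+OSM raised all 4 genes, PLAU by 2.86 ± 0.14, PLAUR by 1.16 ± 0.10, PLAT by 1.30 ± 0.13 and SERPINE2 by 0.68 ± 0.14, where 31.6% of all features were called higher. The 3 additions were not tested against each other.

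The combinations were then compared with the sum of the single ligands. The log2 change of a combination over PBS, less the summed log2 changes of its ligands, is called its departure, and is 0 where fold changes multiply. A second reading on the CPM scale, chosen after seeing the data and carrying no test, divides the mean level of the combination by the PBS level plus the summed increments of the ligands. The departures share the PBS and single-ligand libraries.

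For EGF+TGFB, departures of PLAU, PLAUR and PLAT were called higher and that of SERPINE2 lower, where 13.3% of all features were called higher and 16.5% lower. PLAU rose 11.9-fold where the product of the single changes was 7.99-fold, a departure of 0.58 ± 0.18 (adjusted p = 0.0190). That call was lost without EGF replicate 3 (0.45, adjusted p = 0.0595) or EGF+TGFB replicate 2 (0.51, adjusted p = 0.0579). PLAUR departed by 0.53 ± 0.15 (adjusted p = 0.00853), which was lost when the spread came from the groups compared alone (adjusted p = 0.0867), and PLAT by 0.85 ± 0.20 (adjusted p = 0.00237). On the CPM scale, PLAU was at 2.56 times the summed level, PLAUR at 1.67 times and PLAT at 1.60 times, so these 3 genes exceeded the sum on both scales.

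For OSM+TGFB, PLAU and PLAT departed upward, by 0.94 ± 0.18 (adjusted p = 0.000716) and 0.92 ± 0.20 (adjusted p = 0.00174), where 9.61% of all features were called higher. PLAU, which rose 7.04-fold where the product of single changes was 3.67-fold, was at 2.22 times the summed CPM level, and PLAT at 1.74 times. PLAUR did not depart beyond the spread (0.10 ± 0.15, adjusted p = 0.690).

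EGF+OSM was the pair in which PLAU fell short, with a departure of -0.84 ± 0.18 (adjusted p = 0.000843) and 0.643 times the summed CPM level. PLAU and SERPINE2 were called lower there, where 23% of all features were, and PLAUR was called higher, where 15.7% were. PLAUR departed by 0.46 ± 0.15 (adjusted p = 0.0189) and was at 1.40 times the summed level. The PLAUR call was lost without PBS replicate 2 (adjusted p = 0.0543), EGF replicate 3 (0.0620) or EGF+OSM replicate 1 (0.0568), and with no filter on low counts (0.0510). PLAT was close to the product of its single changes, at 2.97-fold against 3.10-fold (departure -0.06 ± 0.19, adjusted p = 0.841).

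With all 3 ligands PLAT departed by 1.57 ± 0.28 (adjusted p = 6.75e-05), where 22% of all features were called higher. Its observed change of 7.34-fold compares with a product of 2.48-fold, and its level was 3.13 times the CPM sum. The departures of PLAU (0.47 ± 0.26, adjusted p = 0.138) and PLAUR (0.42 ± 0.21, adjusted p = 0.111) did not pass the test, though their levels were 2.85 and 1.62 times the CPM sums. PLAUR passed without EGF replicate 1 (0.52, adjusted p = 0.0425). The 3-way term, the part that neither single ligands nor pairs account for on the log2 scale, was called for 0 of the 4 genes by edgeR (2 had an unadjusted p under 0.05), where edgeR called 3.9% of all features. DESeq2 called it for 2 of the 4 genes and for 914 features in all, against 607 with edgeR. In edgeR the term was -0.68 ± 0.21 for PLAUR (adjusted p = 0.0739) and 1.03 ± 0.32 for SERPINE2 (adjusted p = 0.0802). Both passed with DESeq2 (adjusted p = 0.0259 and 0.0144). The PLAUR term also passed without EGF replicate 1 (0.0369) or EGF+TGFB replicate 3 (0.00742), and the SERPINE2 term without OSM replicate 2 (0.00550). Whether these 2 terms passed thus depended on the settings.

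SERPINE2 departed downward on the log2 scale in every combination, by -3.62 ± 0.24 with EGF+OSM, -1.75 ± 0.25 with EGF+TGFB, -1.91 ± 0.25 with OSM+TGFB and -6.25 ± 0.40 with the 3 ligands (adjusted p = 2.14e-10, 2.75e-05, 1.52e-05 and 8.34e-11). For OSM+TGFB 13.7% of all features were called lower and for the 3 ligands 25.9%. On the CPM scale SERPINE2 was above the summed level by 67.9 ± 7.85 CPM (SE) with EGF+TGFB, 143 ± 23.1 with OSM+TGFB and 91.4 ± 18.3 with the 3 ligands. With EGF+OSM the difference of 16.2 ± 17.8 CPM was smaller than its SE. In the 3 combinations with TGFB, whether SERPINE2 fell short of additivity or exceeded it thus depended on the scale, while the direction for PLAU in EGF+OSM, EGF+TGFB and OSM+TGFB did not.

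**Figure D3:**
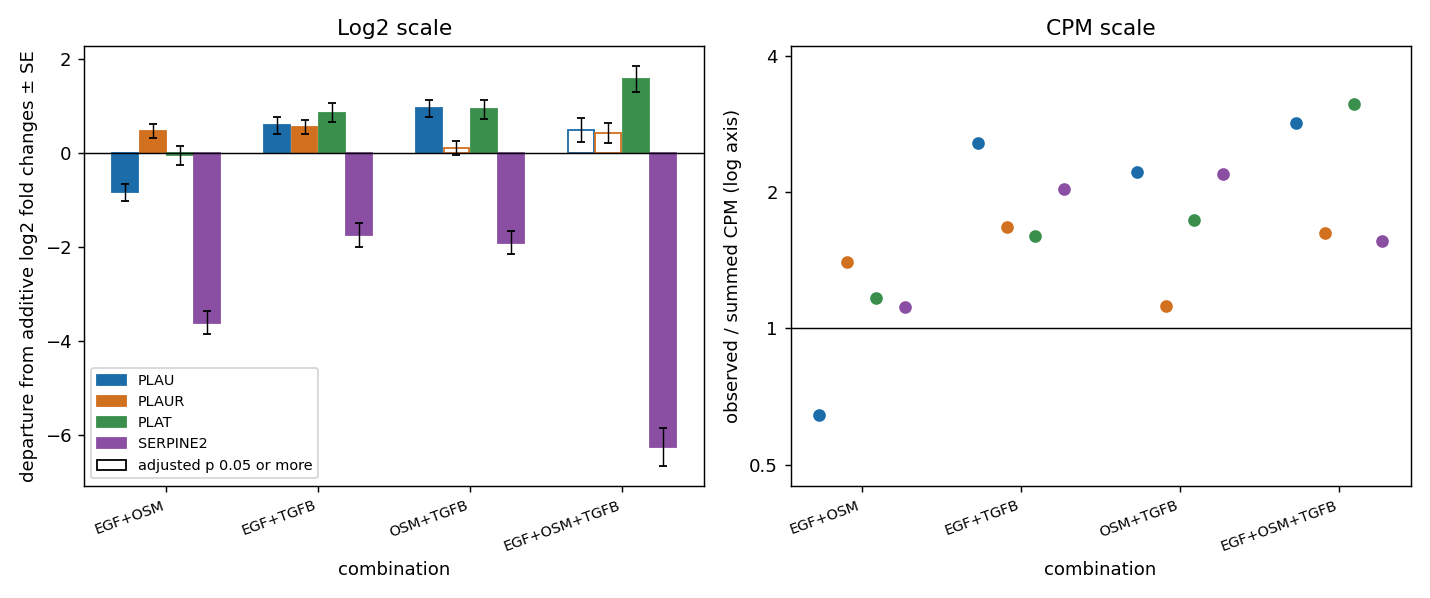
Left, departure of each combination from the sum of single-ligand log2 fold changes ± SE, with open bars for an adjusted p of 0.05 or more. Right, mean CPM of the combination divided by the PBS level plus the summed single-ligand increments (log axis, line at 1): PLAU is below 1 in EGF+OSM alone, at 0.643, and SERPINE2 is below 0 on the left in all 4 combinations but above 1 on the right, in EGF+OSM at 1.11 with a difference smaller than its SE.

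Across the 27 libraries, Pearson's r between log2 CPM values was 0.913 for PLAU and PLAUR, 0.714 for PLAUR and SERPINE2, 0.667 for PLAU and SERPINE2, 0.665 for PLAU and PLAT, 0.631 for PLAT and SERPINE2 and 0.536 for PLAUR and PLAT. These values describe points that share libraries, depth and groups, and carry no p. The genes with the most similar profile among all those at a mean of 10 CPM or more were taken by the same measure. For PLAU these were MYL6, a myosin light chain (r = 0.985), DGKA, a diacylglycerol kinase (0.983), and TANGO2 (0.979). MYL6 was at 528 ± 27.2 CPM in PBS, 1280 ± 95.0 in EGF+TGFB and 1317 ± 54.1 with the 3 ligands, a smaller relative range than that of PLAU.

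For PLAUR the closest profiles were those of ABL2, a cytoplasmic tyrosine kinase (r = 0.974), CCDC93 (0.966) and MYO1E, a class I myosin (0.960). For PLAT they were POLM, a DNA polymerase (0.946), NEDD8, a ubiquitin-like modifier (0.933), and FGFR1OP2 (0.929). POLM shared the peak with the 3 ligands, at 52.1 ± 2.33 CPM against 13.5 ± 0.0927 in PBS and 12.1 ± 0.341 with TGFB. For SERPINE2 they were TUBB3, a beta-tubulin (0.987), TMSB4X, an actin-binding peptide (0.983), and SOWAHC (0.982). TUBB3 rose from 29.7 ± 1.11 CPM in PBS to 1083 ± 22.7 with the 3 ligands (SD, n = 3).

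A further 32 genes of the system were grouped by role, and 27 of them had enough counts to be tested. In PBS-based comparisons 14 of the 27 were called higher and 9 lower with EGF, 16 and 8 with OSM, and 15 and 3 with TGFB. The counts were 15 and 10 with EGF+OSM, 17 and 7 with EGF+TGFB, 18 and 7 with OSM+TGFB, and 16 and 9 with the 3 ligands. Their median log2 fold change was 0.30, 0.68, 0.31, 0.51, 0.68, 1.28 and 1.45 in that order, where the median of all features lay between -0.07 and 0.00. Of all features, 34.9%, 33.5%, 19.9%, 37.6%, 36.2%, 34.2% and 37.7% were called higher there. In the same order, 38.6%, 29.8%, 15.8%, 39.6%, 37.5%, 31.8% and 36.7% were called lower. Plasminogen itself (PLG) was not tested and reached at most 10 counts in a library. LRP2, HPN, KLKB1 and VTN, the gene of vitronectin, were not tested either, with at most 5, 5, 4 and 3 counts.

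Among 6 other inhibitors, all tested, the members moved in different directions: with EGF+TGFB 1 was called higher and 3 lower, where 36.2% and 37.5% of all features were. TFPI2, an inhibitor of plasmin and other proteases, was called higher in all 7 treatments and was at 0.192 ± 0.111 CPM in PBS and 24.6 ± 1.90 with EGF. SERPINB2, a serpin that inhibits urokinase, went the other way. It was called lower in all 7 treatments and fell from 59.5 ± 3.40 CPM in PBS to 4.96 ± 0.248 with the 3 ligands. SERPINA5, the protein C inhibitor, was at 28.1 ± 5.25 CPM in PBS and between 0.610 and 3.38 in the 6 groups with EGF or OSM, called lower in each, while TGFB alone left it at 23.5 ± 2.93 (adjusted p = 0.42). SERPINF2, which inhibits plasmin, fell with EGF (log2 -2.09 ± 0.23) and rose with OSM (2.08 ± 0.19). SERPINI1 had changes under 2-fold, and A2M was not called in any treatment.

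Of the 6 proteins that hold plasminogen at the surface or plasminogen itself, 5 were tested, and all 5 were called higher with EGF+TGFB, OSM+TGFB and the 3 ligands, where 36.2%, 34.2% and 37.7% of all features were. S100A10, the partner of annexin A2, was called higher in all 7 treatments, at 346 ± 11.9 CPM in PBS and 1588 ± 114 with the 3 ligands. ANXA2 was at 2820 ± 128 in PBS and 6126 ± 269 with the 3 ligands. ENO1 and PLGRKT were called higher in the 6 groups with EGF or OSM and not with TGFB alone. KRT8, a keratin that can bind plasminogen, fell with EGF and with OSM (log2 -0.85 ± 0.10 and -0.72 ± 0.10) and rose in the 4 groups with TGFB.

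The endocytic receptors did not move together. LRP1, which clears activator and serpin complexes, had 604 ± 80.7 CPM in PBS. That compares with 76.9 ± 11.4 under EGF, 172 ± 40.5 under OSM and 38.1 ± 5.99 under both. It was called lower in the 6 groups with EGF or OSM, and TGFB alone left it at 645 ± 32.5 (adjusted p = 0.7). VLDLR rose from 1.44 ± 0.323 CPM in PBS to 20.0 ± 3.63 with the 3 ligands. SORL1 was at 17.9 ± 2.89 CPM in PBS and 144 ± 5.88 with TGFB, but at 22.8 ± 0.978 with EGF+TGFB. MRC2, which associates with the urokinase receptor, was called higher in 6 treatments and lower with EGF+OSM (log2 -0.55 ± 0.11).

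Proteases that can activate pro-urokinase numbered 4 tested of 6. CTSB, cathepsin B, was at 685 ± 17.3 CPM in PBS, 2773 ± 50.8 with OSM and 4583 ± 120 with OSM+TGFB. CTSL, cathepsin L, was at 71.6 ± 2.55 CPM in PBS and 373 ± 15.2 with OSM. Both were called higher in the 4 groups with OSM and also with EGF+TGFB, at 1012 ± 101 CPM for CTSB and 90.8 ± 1.15 for CTSL. CTSB was called higher with TGFB alone too (1164 ± 26.6 CPM). With EGF alone CTSL was called higher (88.3 ± 2.12 CPM) and CTSB lower (573 ± 25.6 CPM). F12, the gene of coagulation factor XII, rose with EGF (log2 0.61 ± 0.11) and was called lower in 5 treatments, furthest with OSM+TGFB (-1.07 ± 0.12). ST14, the membrane protease matriptase, was called lower in the 6 groups with EGF or OSM, by log2 -0.59 ± 0.07 with EGF and -0.91 ± 0.07 with the 3 ligands.

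The 6 integrin genes tested, partners of the urokinase receptor, were called higher in all 7 treatments, where 19.9% to 37.7% of all features were. ITGB3 was at 0.351 ± 0.107 CPM in PBS, 8.73 ± 1.29 with OSM, 8.54 ± 0.988 with TGFB and 126 ± 5.88 with OSM+TGFB. ITGAV was at 187 ± 7.99 CPM in PBS and 1392 ± 47.9 with OSM+TGFB, and ITGA5 at 179 ± 8.63 and 1365 ± 33.1. ITGA3 rose by 1.93 ± 0.06 with EGF and 1.83 ± 0.06 with OSM on the log2 scale. ITGB1 and ITGB5 had their highest means with the 3 ligands and with EGF+TGFB, at 3444 ± 266 and 287 ± 20.8 CPM. In EGF+OSM all 6 departed downward from the sum of single log2 fold changes, where 23% of all features were called lower. In EGF+TGFB 1 of the 6 was called higher and 1 lower, near the shares of all features (13.3% and 16.5%).

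**Figure D4:**
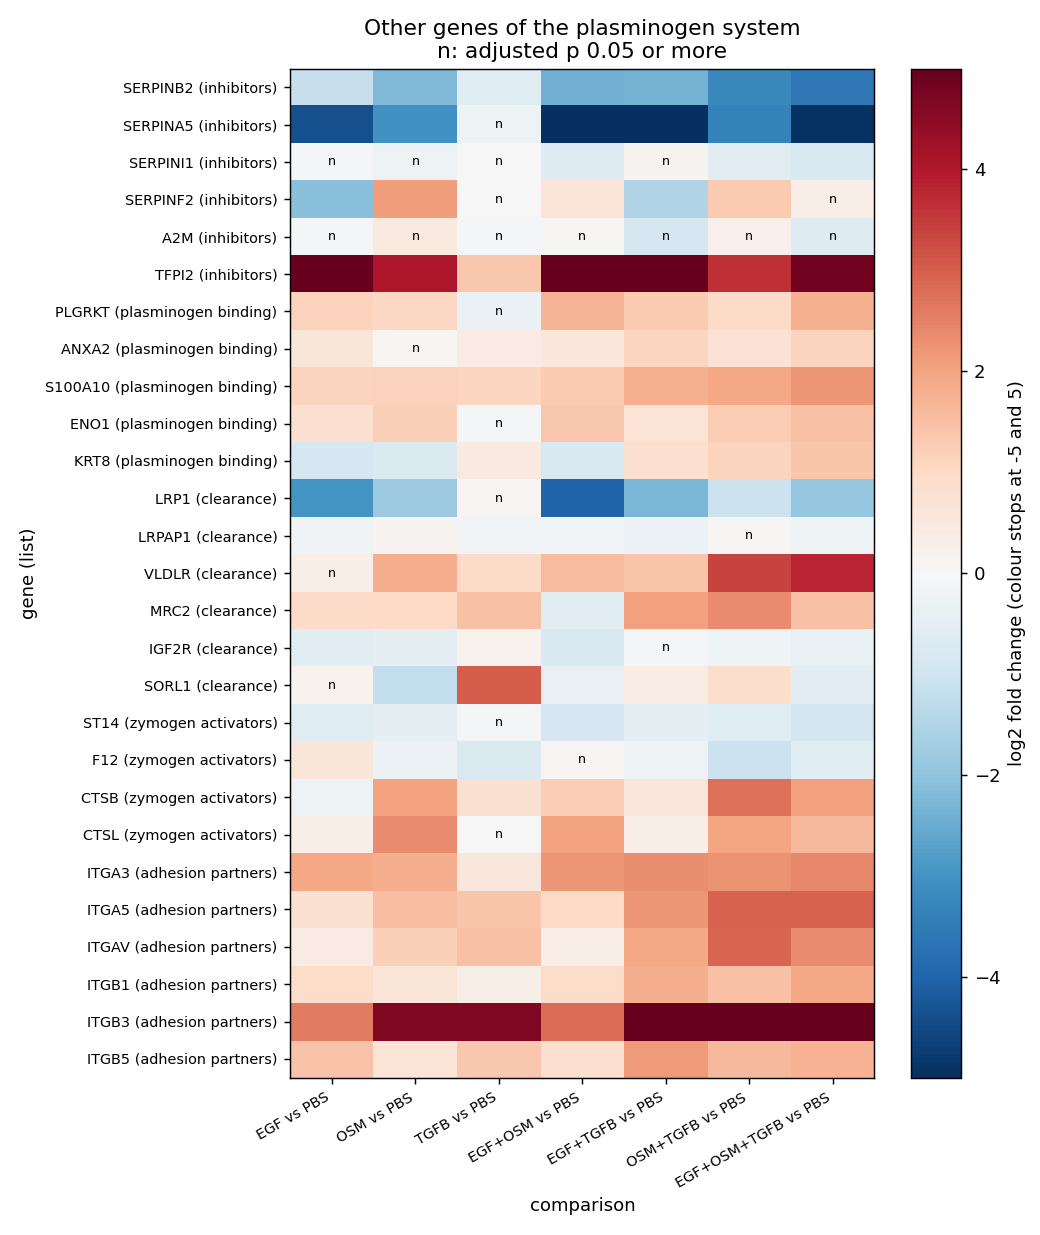
Log2 fold change over PBS (colour, stopping at -5 and 5) of the 27 tested genes of the system other than PLAU, PLAUR, PLAT and SERPINE2, by role (rows) and treatment (columns), with n for an adjusted p of 0.05 or more. The 6 integrin rows and TFPI2 and S100A10 are raised in every column, and SERPINB2 is lowered in every column.

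In bulk RNA, a different share of cells of a type and a different amount of RNA per cell cannot be told apart. Summed over the 6 fibroblast markers, levels ran from 35.8 to 178 CPM, lowest in EGF+OSM and highest in OSM+TGFB (158 to 178 CPM). DCN and COL6A3 made up nearly all of that sum, at group means of 8.61 to 96.2 and 0.572 to 83.1 CPM, while LUM, PDGFRA and COL1A2 stayed at or below 0.322 CPM in every group mean. The 5 endothelial markers summed to 0.770 to 4.59 CPM. The 5 leukocyte markers summed to 26.2 to 119 CPM, highest with OSM, through CD14 and CD68, and PTPRC stayed at or below 0.133 CPM. Their part in the levels of the 4 genes was not tested.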

How the data were processed

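The authors deposited a table of 40487 rows by 27 libraries, taken here as estimated counts. The submitters' processing notes name kallisto 0.46.2, Trim Galore 0.4.3, cutadapt 1.10, FastQC 0.11.5 and R 3.5.0, and the builds GRCh38.p5 and hg38. Their roles, the summing to genes, the rounding and the strand setting are not given in the sources used here. The deposited values were whole, so rounding changed nothing. Per the labels' protocols, libraries came from a stranded kit that selects polyadenylated RNA, and no molecular identifiers are named, so counting error is a lower limit.

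Rows sharing a symbol were summed (36536 features), and 7165 rows without a symbol, with 0.324% of counts, kept their identifiers. In R 4.3.3 with edgeR 4.0.16, filterByExpr by group left 15575 features, TMM factors were 0.867 to 1.12, and a quasi-likelihood model (robust, prior count 0.125) with a mean per group was fitted over 27 libraries, with 18 residual degrees of freedom. A total of 36 pairs of groups and 5 departures were tested, and Benjamini-Hochberg adjustment ran over all features within each contrast. The SE is the log2 fold change divided by the square root of F. The fit was tested on simulated counts. Replicate pairs differed by more than sampling noise (chi-square per degree of freedom 6.84 to 33.9), so no library was treated as a second deposit of another, which does not show that they came from separate cultures. No batch is given in the labels.

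The members and gene lists were chosen with earlier results of these data known, and 1 gene of the lists is not reported here. Other genes were named where called and changed at least 2-fold in any treatment or where not tested, plus the 3 with the highest correlation to each member over log2 CPM (prior count 0.5, mean of at least 10 CPM), and 3 ligand reporters. SERPINI1 and A2M fell outside that rule and were named after their values were seen. Alternatives were upper-quartile scaling, DESeq2 1.42.0, no filter, rows as deposited, a replicate block, only the groups compared, and leaving out each library.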

Additional observations from a re-analysis of the deposited data

Results flagged for a closer look

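For 10 pairings of a gene and a pair of ligands, the effect of a ligand differed with the other ligand present, by edgeR's test of the interaction over 27 libraries (adjusted over all 15575 features). In EGF+OSM the log2 interaction was -0.84 for PLAU, 0.46 for PLAUR and -3.62 for SERPINE2. In EGF+TGFB it was 0.58 for PLAU, 0.53 for PLAUR, 0.85 for PLAT and -1.75 for SERPINE2. In OSM+TGFB it was 0.94 for PLAU, 0.92 for PLAT and -1.91 for SERPINE2. For EGF+OSM, EGF+TGFB and OSM+TGFB, 15.7%, 13.3% and 9.61% of all features were called higher and 23%, 16.5% and 13.7% lower. The calls of PLAUR in EGF+OSM and of PLAU and PLAUR in EGF+TGFB were lost under some alternatives. On the CPM scale the SERPINE2 difference is positive in EGF+TGFB (67.9 ± 7.85 CPM, SE) and OSM+TGFB (143 ± 23.1), and smaller than its SE in EGF+OSM (16.2 ± 17.8).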

How the results depend on the processing

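The 4 genes gave 88 results (4 genes by 22 comparisons), and 73 of them kept their direction and their side of the threshold under every alternative run on the log2 scale, over 1236 recomputed values in all; the cause of the changes below was not tested. With upper-quartile scaling the log2 change of PLAU with OSM was 0.28 and lost its call. With no filter on low counts that change was 0.32, PLAUR from T0 to PBS 0.28 and its EGF+OSM departure 0.48, all 3 without their call, and PLAUR with 3 ligands against EGF+TGFB was -0.026, a turn of sign around 0. The latter was -0.019 with DESeq2 and -0.016 in a fit of only the groups compared. DESeq2 newly called PLAT with TGFB (-0.33) and the 3-way terms of PLAUR (-0.70) and SERPINE2 (1.01). A fit of only the groups compared, which has fewer samples, newly called PLAT with TGFB (-0.32) and OSM added to TGFB for PLAUR (0.19), and lost OSM added to EGF for PLAU (-0.54) and the EGF+TGFB departure of PLAUR (0.48). On the CPM scale, added after seeing the data, the SERPINE2 departures turned positive, at 16.2, 67.9, 143 and 91.4 CPM for EGF+OSM, EGF+TGFB, OSM+TGFB and the 3 ligands, the first of them smaller than its SE of 17.8. Leaving out each library in turn gave ranges of 0.28 to 0.39 for PLAU with OSM, 0.23 to 0.37 for PLAUR from T0 to PBS, 0.45 to 0.73 for the EGF+TGFB departure of PLAU, 0.36 to 0.56 and 0.31 to 0.56 for the EGF+OSM and 3-ligand departures of PLAUR, -0.85 to -0.55 and 0.87 to 1.22 for the 3-way terms of PLAUR and SERPINE2, and, around 0 and never called, -0.28 to 0.072 and -0.17 to 0.052 for the 3-way term and EGF+OSM departure of PLAT, -0.14 to 0.12 for PLAUR with 3 ligands against EGF+TGFB and -0.13 to 0.042 for SERPINE2 with 3 ligands against OSM+TGFB.

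The replicate numbers were not taken to pair libraries: over 108 same-numbered pairs the deviations from group means correlated at 0.044 on average, 9 were over 0.1, and 26 of 27 libraries correlated best with their own number, a hint from the data and not the design. With a replicate block, the 3-way interaction was called for 1247 features against 607 without it and 914 with DESeq2. The block newly called OSM added to TGFB for PLAUR (0.22) and the 3-way terms of PLAUR (-0.67, adjusted p = 0.0220) and SERPINE2 (1.03, adjusted p = 0.0184), and ended no call of the 4 genes.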
